A study of Arabidopsis thaliana with 12 samples.

Results

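RNA-Seq of *bli ire1a* double mutant seedlings was compared with that of wild-type (WT) seedlings, to describe which changes from WT are present when IRE1A is lost together with BLISTER (BLI). The comparison used 6 of the 12 libraries of the study, 3 of *bli ire1a* and 3 of WT, and 20645 of the 33557 genes in the deposited table. These are the genes with a mean expression of at least 0.5 FPKM (fragment counts scaled by transcript length and by the mapped fragments of the library) over the 12 libraries. The other 6 libraries, 3 of the *bli* single mutant and 3 of the *bli ire1b* double mutant, are used here to place the values. They also enter the model behind the tests, where they help to estimate the spread between libraries.

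All plants were of the Columbia strain and are labelled as whole seedlings of day 12, whereas the methods of the study give an older age. The *bli ire1a* plants are homozygous for *bli-1* and for *ire1a*, the *bli ire1b* plants for *bli-1* and for *ire1b*, the *bli* plants for *bli-1* only, and the WT plants carry none of these T-DNA insertions. Each mutant is represented by 1 combination of insertion alleles, and no *ire1a* single mutant is among the 12 libraries, so a change that IRE1A loss brings by itself cannot be told apart here from one that needs the loss of BLI. The seedlings were grown in long days on a medium with sucrose, and the hour of harvest is not given in the sources used here. In whole seedlings, fewer cells of a type and less RNA per cell cannot be told apart.

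The unfolded protein response (UPR) adjusts the folding capacity of the endoplasmic reticulum (ER) to the load of proteins that enter it. In plants the membrane kinase and ribonuclease IRE1, encoded by *IRE1A* and *IRE1B*, splices the mRNA of the transcription factor bZIP60, and a parallel branch releases the transcription factor bZIP28 from the membrane. Both factors activate genes for chaperones, disulfide isomerases and the degradation of misfolded ER proteins. BLI, found in plants alone, binds the Polycomb protein CURLY LEAF, which methylates histones.

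The targeted genes were examined first. *IRE1A* (AT2G17520, chr2:7617151-7621129 in TAIR10.1) had 5.68, 5.57 and 4.45 FPKM in the *bli ire1a* libraries, against 15.04, 15.4 and 15.99 FPKM in the WT libraries. *BLI* (AT3G23980, chr3:8662413-8668040) had 13.4, 8.94 and 9.35 FPKM in *bli ire1a*, against 16.8, 17.7 and 17.3 FPKM in WT. Both genes were below every WT library in every *bli ire1a* library, although fragments of both were still counted. On the log2(FPKM + 0.1) scale *IRE1A* fell by 1.55 (standard error 0.09, adjusted p = 1.03e-05 from limma) and *BLI* fell by 0.73 (standard error 0.14, adjusted p = 0.00654). *IRE1B* averaged 10.2 ± 0.673 FPKM in *bli ire1a* and 9.80 ± 0.682 FPKM in WT (SD, n = 3 each), with an adjusted p = 0.731.

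The libraries of a genotype correlated with each other at r = 0.944 to 0.960 across genes on the log2 scale. The FPKM of the *bli ire1a* libraries summed to 972215 to 1022349 and those of the WT libraries to 1049857 to 1098800. The 10 most abundant genes held 9.94% to 10.7% of these sums in *bli ire1a* and 11.7% to 12.6% in WT. Leaf genes were abundant and root genes were present in all libraries, as the label of whole seedlings implies: the light-harvesting gene *LHCB1.3* averaged 26320 FPKM in *bli ire1a* and 31431 FPKM in WT, and the root β-glucosidase gene *PYK10* averaged 1276 and 1494 FPKM in *bli ire1a* and WT. Of the 14 root markers, *CASP5* was higher (adjusted p = 0.0144, but 0.0531 without *bli ire1a* replicate 1 and 0.0541 without WT replicate 1) and the other 13 did not pass the test. Seed and embryo genes were scarce, with 4 of 6 markers under the expression filter and the other 2 not passing the test. The reference genes *ACT2* and *UBQ5* did not pass the test (log2 differences of 0.04 and 0.09).

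Under the criteria of the study, a 2-fold difference and p up to 0.05 without adjustment (taken here from limma), *bli ire1a* had 370 up-regulated genes (1.79% of those tested) and 451 down-regulated genes (2.18%). When p was adjusted by Benjamini-Hochberg and held to 0.05 with any fold change, 1480 genes (7.17%) were higher and 1624 genes (7.87%) were lower, and with the fold change cutoffs as well, 285 (1.38%) and 317 (1.54%). The adjusted p of at most 0.05 is the call used below for single genes and for members of gene lists, and the shares of 7.17% and 7.87% are what a list would show if it were like all genes tested. For 3246 genes (15.7%) every *bli ire1a* library was above every WT library, and for 3542 genes (17.2%) every one was below. Against *bli*, 1366 genes (6.62%) were higher in *bli ire1a* and 1579 (7.65%) were lower at this adjusted p. List counts against *bli* are to be set beside these shares. The count of genes higher than in WT was 917 without *bli ire1a* replicate 1 and 919 without WT replicate 1. That of genes lower than in WT was 852 without WT replicate 1. Of the genes past the fold change cutoffs, 65 had a listed value of 0 in some of the 6 libraries. A listed 0 can be a failed estimate, so the size of their change is uncertain.

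**Figure D1:**
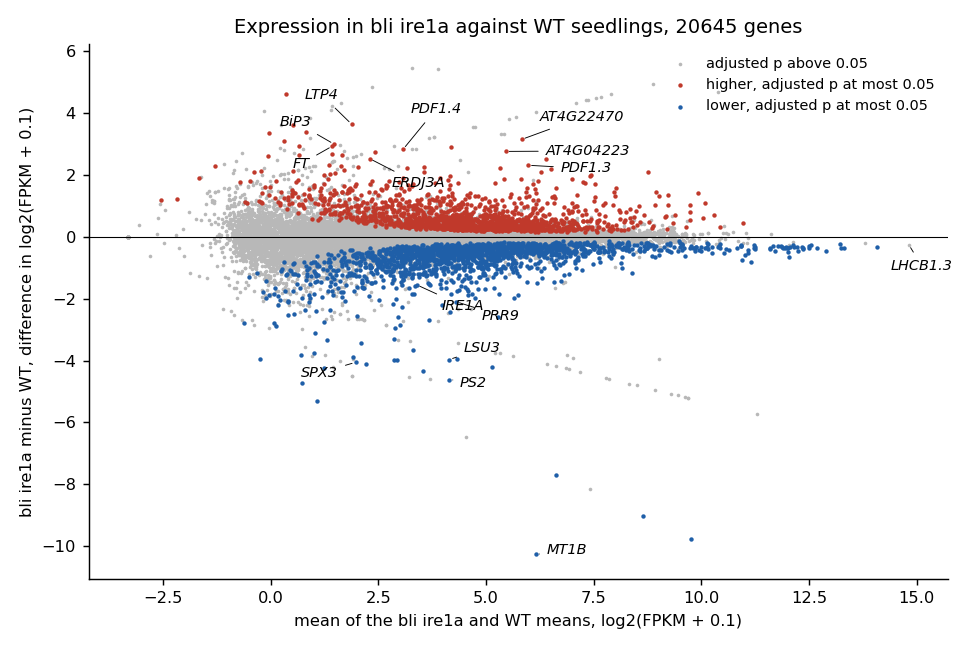
Difference between *bli ire1a* and WT (y axis, in log2(FPKM + 0.1)) against the mean level of the 2 genotypes (x axis, same scale) for each of the 20645 genes tested. Red points are the 1480 genes higher and blue points the 1624 genes lower at an adjusted p of at most 0.05; the rows of points along slanted lines are genes listed at 0 in some libraries. The labelled phosphate and sulphur genes *PS2*, *SPX3* and *LSU3* sit near -4, and the abundant gene *LHCB1.3* sits just below 0.

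Genes were then read in 30 lists by function. Of these, 27 came from knowledge of the pathways but were chosen with earlier results of these data known. The other 3 (phosphate, sulphur and defensin genes) were drawn up after values were seen. The canonical UPR markers are genes that the study itself reports as raised in *bli*, so no list count is independent evidence. The lists in which the largest shares of tested members were higher in *bli ire1a* were the canonical UPR markers (5 of 6), ER folding genes (15 of 21), class I defensins (4 of 7) and genes of ER-associated degradation (5 of 9). Apart from the targeted genes themselves, those with the largest shares lower were Rubisco genes (5 of 5), photosystem genes (17 of 18), phosphate starvation genes (17 of 20) and sulphur limitation genes (9 of 14). The median log2 difference over all genes tested was 0.01.

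**Figure D2:**
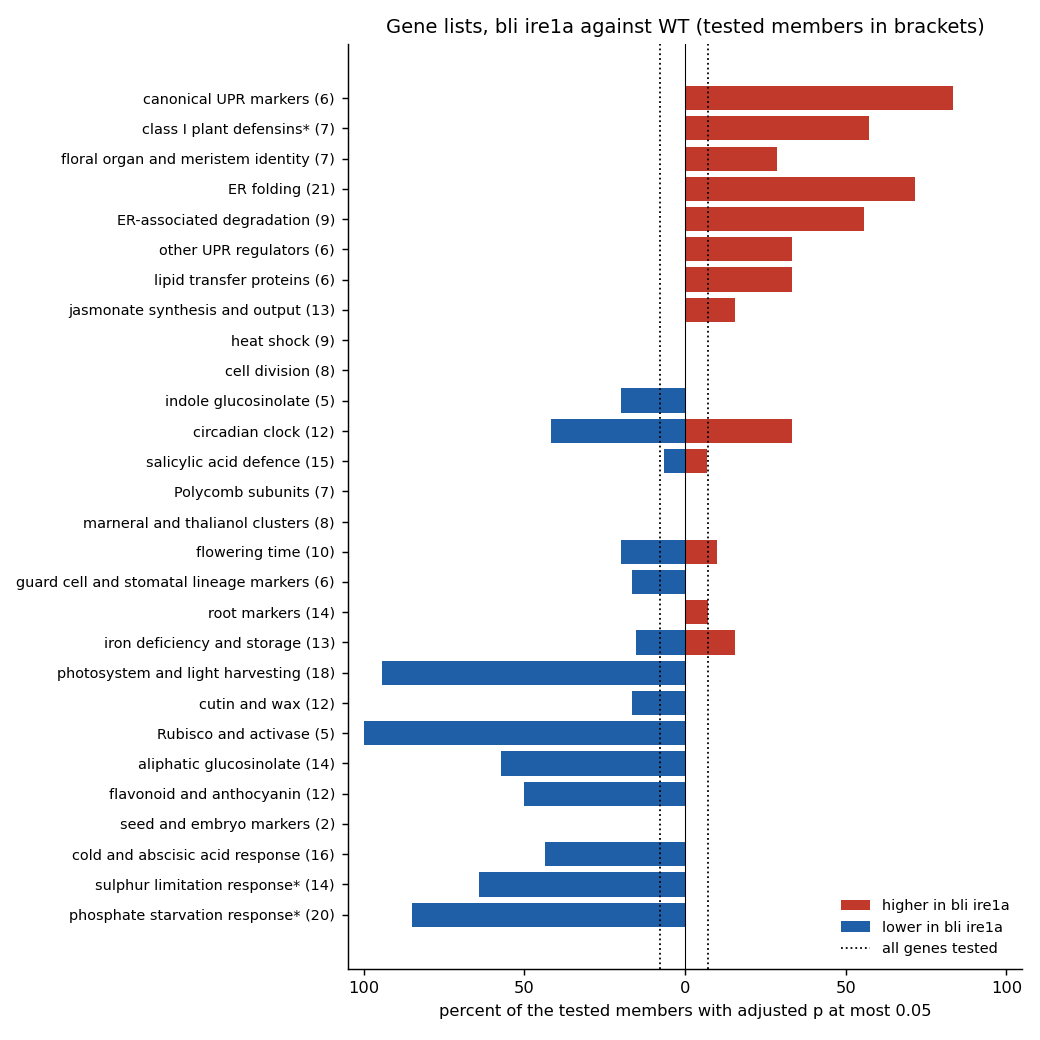
Share of the tested members (their number in brackets) of each of 28 gene lists that were higher (red, to the right) or lower (blue, to the left) in *bli ire1a* than in WT at an adjusted p of at most 0.05, ordered by the median log2 difference. Dotted lines give the shares over all genes tested, 7.17% higher and 7.87% lower. Lists marked with an asterisk were drawn up after values were seen, and the others with earlier results of these data known.

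Of 6 canonical UPR markers, 5 were higher in *bli ire1a* than in WT, at levels far below those in *bli*. *BiP3*, an ER chaperone gene that is nearly silent without stress, had 3.96, 5.24 and 4.81 FPKM in *bli ire1a*, against 0.477, 1.36 and 0.152 FPKM in WT. *ERDJ3A*, which encodes a J-domain co-chaperone of the ER lumen, had 8.18, 8.50 and 8.02 FPKM in *bli ire1a*, against 1.09, 1.33 and 1.69 FPKM in WT. In both genes the lowest *bli ire1a* library was above the highest WT library. *BiP3* rose by 2.99 (standard error 0.45, adjusted p = 0.0019) and *ERDJ3A* by 2.52 (standard error 0.13, adjusted p = 2.96e-06) on the log2 scale. Part of *ERDJ3A* overlaps a gene on the other strand. *NAC103*, a transcription factor gene downstream of bZIP60, had 2.39, 1.60 and 1.75 FPKM in *bli ire1a*, against 0.487, 0.696 and 0.880 FPKM in WT, and rose by 1.37 (adjusted p = 0.00118). *NSF* (AT4G21730), named in the study as an ER stress marker, had 6.20, 7.10 and 7.46 FPKM in *bli ire1a*, against 4.58, 1.72 and 3.03 FPKM in WT, and rose by 1.23 (adjusted p = 0.00758, or 0.0812 with only the 2 genotypes fitted).

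The other markers were weaker or did not pass. *bZIP60* itself had 87.7, 80.3 and 70.1 FPKM in *bli ire1a*, against 58.1, 34.1 and 59.3 FPKM in WT, a log2 difference of 0.69 with adjusted p = 0.0237. The groups did not overlap, but the adjusted p was 0.0868 without *bli ire1a* replicate 1, 0.0640 without *bli ire1a* replicate 2 and 0.12 with only the 2 genotypes fitted. These FPKM count spliced and unspliced *bZIP60* mRNA together. *SARA1*, which encodes a small GTPase of vesicle traffic out of the ER, had 0.823, 1.44 and 0.884 FPKM in *bli ire1a*, against 2.94, 0.921 and 1.58 FPKM in WT, with overlapping libraries and an adjusted p = 0.236. Without WT replicate 2 its adjusted p was 0.0424, in the direction of lower.

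The same markers were compared directly with *bli*. All 6 had fallen below their *bli* level in *bli ire1a* at an adjusted p of at most 0.05, against 7.65% of all genes tested. *ERDJ3B*, which the study also names as a canonical gene raised in *bli*, is not among these 6 but in another list. It did not pass this test (log2 difference of -0.02 from *bli*, adjusted p = 0.832), so the count and the medians below depend on the list. *BiP3* averaged 4.67 ± 0.652 FPKM in *bli ire1a* and 72.8 ± 2.96 FPKM in *bli* (SD, n = 3 each), a fall of 3.94 on the log2 scale (adjusted p = 0.000325). *NAC103* fell by 4.44 and *NSF* by 4.32 against *bli* (adjusted p = 1.92e-07 and 2.25e-06). In *bli ire1b*, which keeps *IRE1A*, *BiP3* averaged 53.6 FPKM and *ERDJ3A* 42.4 FPKM. The median log2 difference of the 6 markers from WT was 1.3 in *bli ire1a*, 5.24 in *bli* and 5.23 in *bli ire1b*, 3 comparisons that share the WT libraries.

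**Figure D3:**
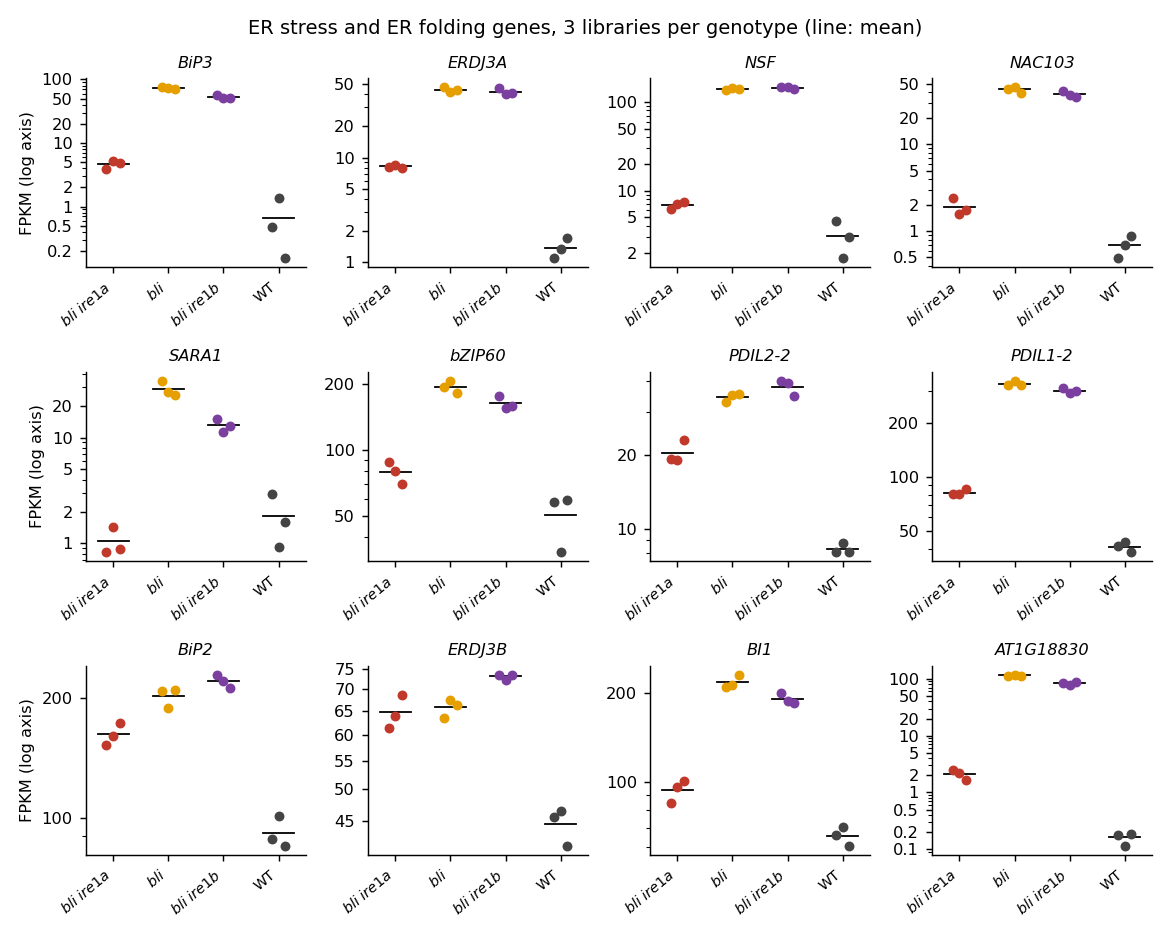
FPKM (log axis) of 12 ER stress and ER folding genes in the 3 libraries of *bli ire1a*, *bli*, *bli ire1b* and WT (points), with the mean of each genotype as a line. In 11 of the 12 genes every *bli ire1a* library lies above every WT library, *SARA1* being the exception. Over all genes tested this share was 15.7%. The 11 genes had passed the test against WT before they were drawn, so nothing is read from their count. *ERDJ3B* is the gene whose *bli ire1a* libraries overlap those of *bli*.

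Chaperones and folding enzymes of the ER lumen were next examined. Of 21 ER folding genes, 15 were higher in *bli ire1a* than in WT, none was lower, and all 21 log2 differences were positive (0.06 to 1.29, median 0.52). When 1 library was left out, 13 to 17 members were higher. *PDIL2-2*, a protein disulfide isomerase gene, had 19.2, 19.2 and 23.1 FPKM in *bli ire1a*, against 8.03, 8.77 and 8.02 FPKM in WT, and rose by 1.29 (standard error 0.09, adjusted p = 2.16e-05). *PDIL1-2*, a second gene of this enzyme family, had 80.6, 80.1 and 85.5 FPKM in *bli ire1a*, against 41.6, 43.4 and 38.2 FPKM in WT, and rose by 1.00 (standard error 0.06, adjusted p = 8.64e-06). The libraries of the 2 genotypes were well apart in both genes.

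*BiP1* and *BiP2*, the abundant constitutive HSP70 chaperones of the ER, averaged 186 and 162 FPKM in *bli ire1a*, against 115 and 91.3 FPKM in WT. They rose by 0.70 and 0.83 (adjusted p = 0.000732 and 0.00012), and since their transcripts are nearly identical the split of fragments between them is uncertain. The calreticulin gene *CRT1a* averaged 235 FPKM in *bli ire1a* and 161 FPKM in WT, and *SHD*, the ER HSP90 gene, 250 and 180 FPKM in *bli ire1a* and WT. Against *bli*, 12 of the 21 genes were lower in *bli ire1a* and none was higher. *PDIL1-2* was among them, with 330.3 ± 10.48 FPKM in *bli*, whereas *CRT1a* averaged 218 FPKM in *bli*. The median log2 difference of the 21 genes from WT was 0.52 in *bli ire1a*, 0.79 in *bli* and 0.76 in *bli ire1b*.

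Other parts of ER quality control showed smaller differences. Of 9 genes of ER-associated degradation, 5 were higher than in WT (median log2 difference 0.29), but only 3 or 4 when any 1 of the 6 libraries was left out. *DER2.1*, a Derlin gene for export of misfolded proteins from the ER, rose by 0.61 (58.6 ± 1.65 FPKM in *bli ire1a* and 38.4 ± 3.31 FPKM in WT; adjusted p = 0.000792), and it overlaps genes on the other strand. *HRD3A*, part of the HRD1 ubiquitin ligase complex, rose by 0.33 (adjusted p = 0.00948). *HRD1B*, a ligase gene of this complex, had an adjusted p = 0.0428 that was above 0.05 whichever of the 6 libraries was left out (0.0512 to 0.137). Of 6 further UPR genes, 2 were higher: *ERDJ3B*, a co-chaperone gene of the lumen, rose by 0.54 (adjusted p = 0.000394) and the cell death suppressor gene *BI1* by 0.52 (adjusted p = 0.00178). *bZIP28*, *bZIP17*, *NAC062* and *NAC089*, which encode membrane-bound transcription factors, did not pass the test, with log2 differences of 0.25, 0.20, 0.24 and 0.07. *ERDJ3B* averaged 64.8 FPKM in *bli ire1a*, 65.9 FPKM in *bli* and 44.5 FPKM in WT, with an adjusted p = 0.832 and a log2 difference of -0.02 (standard error 0.06) between *bli ire1a* and *bli*.

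The 300 bases before the annotated start of each gene were searched for the ER stress response element (ERSE), made of CCAAT and CACG with 10 bases between them, on either strand, which is bound by bZIP28 and bZIP60 together with NF-Y. A match was found for 6 of the 21 ER folding genes (28.6%), 2 of the 9 ER-associated degradation genes (22.2%) and *BiP3* among the 6 canonical markers, against 192 of 20465 windows (0.938%) over the genes tested. Of the 6 ER folding genes with a match 5 were higher than in WT, as were 10 of the 15 without one. The windows of a strongly induced gene, a moderately induced gene and a gene that did not pass the test (*P58IPK*, a J-domain co-chaperone gene, with 21.7 FPKM in *bli ire1a* and 18.3 FPKM in WT and an adjusted p = 0.0559) are shown in the direction of transcription, from RefSeq TAIR10.1, with the matches in capitals. They lie at chr1:2931851-2932150 on the minus strand for *BiP3*, chr1:29126348-29126647 on the plus strand for *PDIL1-2* and chr5:749801-750100 on the plus strand for *P58IPK*.
BiP3: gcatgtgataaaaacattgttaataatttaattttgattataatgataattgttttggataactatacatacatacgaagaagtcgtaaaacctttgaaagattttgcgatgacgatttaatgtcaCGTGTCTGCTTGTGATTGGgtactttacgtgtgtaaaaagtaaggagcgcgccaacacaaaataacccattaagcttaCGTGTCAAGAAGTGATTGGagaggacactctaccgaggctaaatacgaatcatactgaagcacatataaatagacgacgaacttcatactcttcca
PDIL1-2: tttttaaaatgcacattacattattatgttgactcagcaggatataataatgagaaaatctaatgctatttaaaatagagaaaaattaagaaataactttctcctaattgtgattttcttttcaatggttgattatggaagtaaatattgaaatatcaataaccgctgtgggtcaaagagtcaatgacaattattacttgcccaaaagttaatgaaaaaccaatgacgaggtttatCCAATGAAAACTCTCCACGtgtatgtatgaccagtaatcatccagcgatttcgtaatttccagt
P58IPK: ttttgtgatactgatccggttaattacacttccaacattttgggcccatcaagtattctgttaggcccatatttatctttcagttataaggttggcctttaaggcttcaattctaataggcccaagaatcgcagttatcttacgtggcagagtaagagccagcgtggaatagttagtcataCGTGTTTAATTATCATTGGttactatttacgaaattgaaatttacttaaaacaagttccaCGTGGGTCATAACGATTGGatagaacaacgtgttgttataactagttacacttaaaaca
*BiP3* and *P58IPK* each have 2 matches and *PDIL1-2* has 1. A match describes the letters of the window and does not show that a factor binds there.

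Lipid transfer protein and defensin genes encode small secreted proteins of the cell wall and of defence. Of 6 lipid transfer protein genes, 2 were higher in *bli ire1a* than in WT. *LTP4* had 4.02, 10.4 and 5.78 FPKM in *bli ire1a*, against 0.275, 0.516 and 0.480 FPKM in WT. It rose by 3.63 (standard error 0.48, adjusted p = 0.00099) and was below *bli* by 3.54 (77.4 ± 30.5 FPKM in *bli*, adjusted p = 0.000853). *LTP2* had 334, 335 and 315 FPKM in *bli ire1a*, against 182, 153 and 150 FPKM in WT, with no overlap, and rose by 1.02 (adjusted p = 0.000164). The other 4 lipid transfer protein genes did not pass the test, among them *LTP3* with 16.3 FPKM in *bli ire1a* and 15.8 FPKM in WT.

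Of 7 class I defensin genes, 4 were higher in *bli ire1a* than in WT (median log2 difference 1.27). *PDF1.3* had 90.6, 139 and 84.8 FPKM in *bli ire1a*, against 20.5, 23.8 and 17.9 FPKM in WT, and rose by 2.31 (adjusted p = 5.42e-05). *PDF1.4* had 13.1, 12.2 and 18.3 FPKM in *bli ire1a*, against 1.17, 2.57 and 2.43 FPKM in WT, and rose by 2.82 (adjusted p = 0.000102). *PDF1.2*, the usual output gene of jasmonate and ethylene defence, averaged 85.5 FPKM in *bli ire1a*, 361 FPKM in *bli* and 36.0 FPKM in WT. It rose by 1.27 against WT (adjusted p = 0.000486), and it and *PDF1.2c* are near-identical copies whose fragments may be split between them. Of the 13 jasmonate genes, *PDF1.2* and *LOX2* were higher. *LOX2*, a lipoxygenase gene of jasmonate synthesis, averaged 263 FPKM in *bli ire1a* and 169 FPKM in WT with an adjusted p = 0.0468, which ranged from 0.0220 to 0.150 when 1 library was left out and was above 0.05 without *bli ire1a* replicate 1 or 2 or WT replicate 2 or 3.

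Several groups were not distinguished from WT. Of 8 genes of the marneral and thalianol clusters, which make root triterpenes, none passed the test (log2 differences of -0.72 to 0.75), and against *bli* 4 of them were lower. *MRN1*, the marneral synthase gene, averaged 0.351 FPKM in *bli ire1a*, 2.62 FPKM in *bli* and 0.143 FPKM in WT. It passed the filter with a mean of 0.929 FPKM over the 12 libraries, but *bli ire1a* and WT were both below 0.5 FPKM. At such low levels its test against WT says little. Of 9 heat shock genes, 8 cell division genes and 7 genes for Polycomb subunits, none passed the test against WT with limma, while at an unadjusted p of at most 0.05 the numbers were 0, 0 and 1, and 1 for the triterpene genes. *HSFA2*, a heat stress transcription factor gene, averaged 1.23 FPKM in *bli ire1a*, 5.73 FPKM in *bli* and 1.23 FPKM in WT. *CLF*, which encodes the Polycomb partner of BLI, averaged 10.8 FPKM in *bli ire1a* and 9.17 FPKM in WT, a log2 difference of 0.24 with adjusted p = 0.12. Missing the threshold does not show that these levels are equal.

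The largest rises outside these lists included genes with no name in the reference annotation. AT4G04223, annotated as a non-coding RNA (chr4:2036511-2037816), had 76.2, 83.2 and 69.5 FPKM in *bli ire1a*, against 10.01, 10.96 and 12.8 FPKM in WT. It rose by 2.75 (standard error 0.10, adjusted p = 2.61e-07), and its level in *bli* (90.06 FPKM) and *bli ire1b* (86.8 FPKM) did not differ from that in *bli ire1a* at an adjusted p of at most 0.05 (0.139 and 0.241). AT4G22470 had 121, 114 and 69.6 FPKM in *bli ire1a*, against 17.37, 10.7 and 7.35 FPKM in WT, and rose by 3.14 (adjusted p = 0.000291). It overlaps a gene on the other strand, and whether the counting used strand is not given in the sources used here. Among genes named elsewhere, *NRT1.8*, *F3H*, *CASP5*, *CBF3*, *bHLH101* and AT2G05915 also overlap a gene on the other strand. AT1G63055 overlaps one on its own strand.

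*XTR6*, a xyloglucan endotransglucosylase gene of cell wall remodelling, had 40.2, 34.0 and 21.7 FPKM in *bli ire1a*, against 4.91, 3.37 and 4.21 FPKM in WT, and rose by 2.88 (adjusted p = 0.000126). *NRT1.8*, a gene for a nitrate transporter that unloads nitrate from the xylem, had 10.8, 9.44 and 7.28 FPKM in *bli ire1a*, against 1.95, 1.25 and 0.826 FPKM in WT, and rose by 2.74 (adjusted p = 0.000126). *ENDO2*, an endonuclease gene, rose by 2.92 (2.66 ± 0.761 FPKM in *bli ire1a* and 0.275 ± 0.137 FPKM in WT; adjusted p = 0.000397), and it overlaps genes on the other strand. AT1G18830, with *SEC31A* as a synonym in the annotation and so a coat subunit of vesicles that leave the ER, had 2.53, 2.17 and 1.68 FPKM in *bli ire1a*, against 0.182, 0.114 and 0.188 FPKM in WT. It rose by 3.09 against WT (adjusted p = 2.75e-06) and fell by 5.70 against *bli* (114 ± 3.55 FPKM in *bli*, adjusted p = 2.13e-09). AT1G63055 had 1.71, 3.09 and 2.33 FPKM in *bli ire1a* and was listed at 0 in the 3 WT libraries, and AT2G05915 had 2.11, 3.16 and 2.01 FPKM in *bli ire1a* and 0.75 FPKM in 1 WT library, being listed at 0 in the others, so no fold change is given for them. With only the 2 genotypes fitted, the adjusted p of AT2G05915 was 0.0579.

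Of 10 flowering time genes tested, 1 was higher and 2 were lower. *FT*, which encodes the mobile signal that triggers flowering, had 4.84, 4.28 and 4.77 FPKM in *bli ire1a*, against 0.501, 0.313 and 0.869 FPKM in WT. The libraries were far apart, and *FT* rose by 2.93 (standard error 0.25, adjusted p = 9.54e-05). It averaged 9.67 FPKM in *bli* and 11.4 FPKM in *bli ire1b*, both above *bli ire1a* (adjusted p = 0.0192 and 0.00825). Genes for 2 MADS-box repressors of flowering were lower. *SVP* had 62.5, 62.0 and 51.3 FPKM in *bli ire1a*, against 97.7, 86.8 and 87.9 FPKM in WT, and fell by 0.64 (adjusted p = 0.0022), while *MAF5* had 7.37, 6.55 and 9.17 FPKM in *bli ire1a*, against 15.2, 13.7 and 15.6 FPKM in WT, and fell by 0.95 (adjusted p = 0.00739). The repressor gene *FLC* averaged 2.95 FPKM in *bli ire1a*, 0.220 FPKM in *bli* and 4.1 FPKM in WT, with an adjusted p = 0.637 between *bli ire1a* and WT.

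Of 12 floral organ and meristem genes, 7 passed the expression filter and 2 were higher. *SEP3*, a floral MADS-box gene that is a known Polycomb target, had 13.5, 12.8 and 7.37 FPKM in *bli ire1a*, against 3.09, 6.40 and 3.67 FPKM in WT, and rose by 1.35 (adjusted p = 0.00629, or 0.0668 with only the 2 genotypes fitted). *PI*, which specifies petals and stamens, averaged 0.815 FPKM in *bli ire1a* and 0.209 FPKM in WT. Its adjusted p = 0.0261 ranged from 0.00674 to 0.0830 when 1 library was left out, and was above 0.05 without *bli ire1a* replicate 1 or 2 or WT replicate 1 or 3. *AP1*, *LFY* and *AG*, which mark floral meristems and organs, stayed under 1 FPKM in all 12 libraries.

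Most phosphate starvation genes examined were lower in *bli ire1a* than in WT. Their proteins free phosphate from phospholipids and pyrophosphate, replace phospholipids by galactolipids and sulfolipids, take up phosphate, or restrain the response (the SPX proteins and the RNAs of *IPS1* and *AT4*), and the transcription factor PHR1 activates many of them. Of 20 such genes, 17 were lower than in WT and none was higher, with a median log2 difference of -1.93. With 1 library left out, 16 to 18 members were lower. The list was drawn up after *PS2*, *MGDC*, *SPX3* and *PEPC1* had been seen among the largest falls, so its count is no independent evidence of direction.

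*PS2*, a pyrophosphatase gene induced by phosphate starvation, had 1.31, 1.28 and 1.17 FPKM in *bli ire1a*, against 43.9, 31.6 and 26.0 FPKM in WT, and fell by 4.61 (standard error 0.50, adjusted p = 0.000351). *SPX3* had 0.168, 0.774 and 0.254 FPKM in *bli ire1a*, against 8.29, 7.37 and 6.02 FPKM in WT, and fell by 4.06 (standard error 0.57, adjusted p = 0.00136). *MGDC* (also *MGD3*), a galactolipid synthase gene, had 0.202, 0.798 and 0.366 FPKM in *bli ire1a*, against 10.1, 8.83 and 7.001 FPKM in WT, and fell by 4.11 (adjusted p = 0.000462). In these genes every *bli ire1a* library was more than a log2 unit below every WT library. *PEPC1*, a phosphatase gene for phospholipid head groups, averaged 0.852 FPKM in *bli ire1a* and 14.2 FPKM in WT.

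Abundant members moved as well. *SPX1* averaged 10.9 FPKM in *bli ire1a* and 66.2 FPKM in WT, the non-coding RNA gene *AT4* 23.0 and 84.5 FPKM in *bli ire1a* and WT, and the sulfolipid synthase gene *SQD2* 30.8 and 68.4 FPKM in *bli ire1a* and WT. The members that did not pass were *SPX2*, *PHO1;H1* and *RNS1*, with log2 differences of -0.43, -0.34 and 0.34. In *bli* the median log2 difference of the list from WT was -1.83 and in *bli ire1b* it was -2.48, with the WT libraries shared. Directly against *bli*, 2 of the 20 genes were higher in *bli ire1a* and 4 were lower, where 6.62% and 7.65% of all genes tested were. The root phosphate transporter gene *PHT1;1*, counted among the root markers, averaged 44.2 FPKM in *bli ire1a* and 64.1 FPKM in WT (adjusted p = 0.0803). Of the 14 root markers, 4 were below WT in every *bli ire1a* library, where 17.2% of all genes tested were. The part of root tissue in these values was not tested.

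The P1BS element bound by PHR1, with the letters GNATATNC, which read the same on both strands, was found in the 300 bases before 8 of the 20 phosphate genes and in 1352 of 20465 windows (6.61%) over the genes tested. All 8 genes with a match were lower than in WT, as were 9 of the 12 without one. The windows of *SPX3* (chr2:18606110-18606409, plus strand) and of *SRG3* (chr3:350011-350310, minus strand), chosen after their values were seen from the 3 members with 2 matches, are shown in the direction of transcription from RefSeq TAIR10.1, with the matches in capitals. *SRG3*, a phosphodiesterase gene for phospholipid breakdown, averaged 10.7 FPKM in *bli ire1a* and 42.6 FPKM in WT and fell by 1.98 (adjusted p = 0.0001).
SPX3: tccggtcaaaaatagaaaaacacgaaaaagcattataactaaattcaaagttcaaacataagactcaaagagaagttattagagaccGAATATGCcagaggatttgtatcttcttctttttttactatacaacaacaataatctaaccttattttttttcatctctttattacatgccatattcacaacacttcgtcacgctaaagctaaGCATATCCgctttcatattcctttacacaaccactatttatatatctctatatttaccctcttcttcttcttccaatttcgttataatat
SRG3: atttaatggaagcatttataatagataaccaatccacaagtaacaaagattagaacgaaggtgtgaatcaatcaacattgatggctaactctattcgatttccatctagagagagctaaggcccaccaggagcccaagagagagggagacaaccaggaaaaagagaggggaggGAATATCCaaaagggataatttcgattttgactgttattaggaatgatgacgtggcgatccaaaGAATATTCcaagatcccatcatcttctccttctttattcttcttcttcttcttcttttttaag
As above, the letters alone do not show binding.

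**Figure D4:**
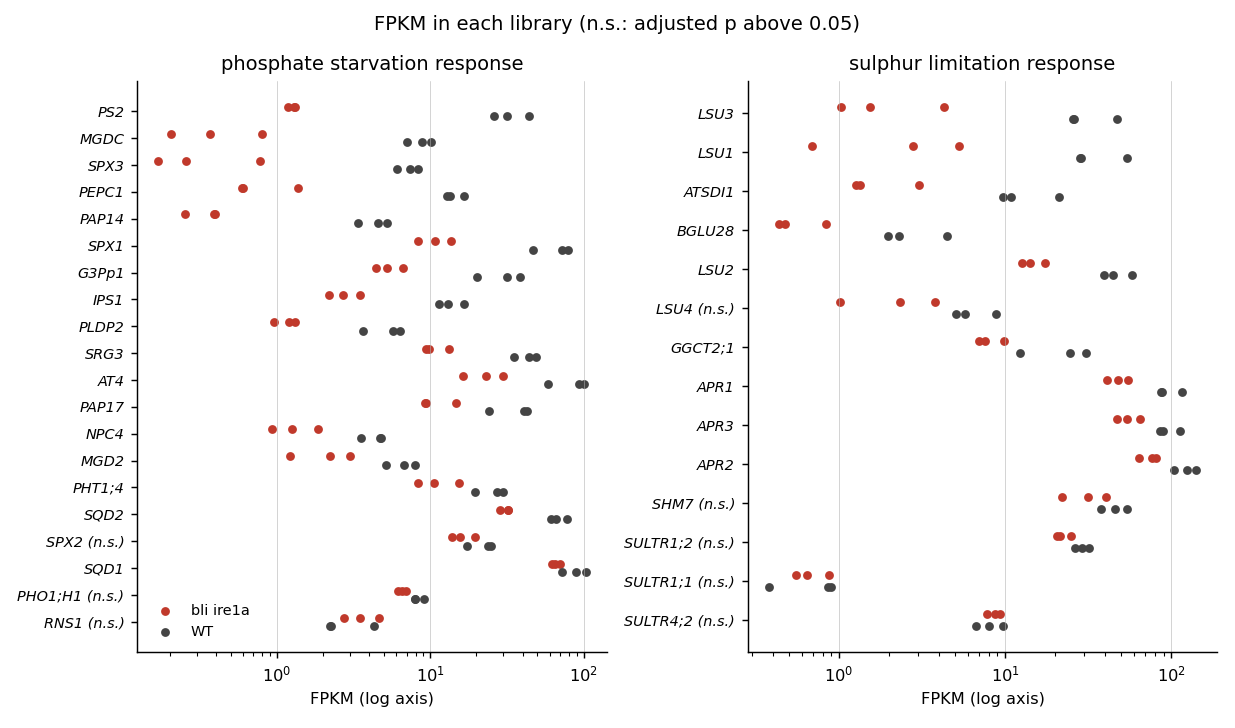
FPKM (log axis) of the 20 phosphate starvation genes and 14 sulphur limitation genes in each of the 3 *bli ire1a* libraries (red, upper points of each row) and 3 WT libraries (dark grey, lower points), ordered by the log2 difference; n.s. marks an adjusted p above 0.05. The 2 genotypes are separate in the upper rows and overlap in some rows further down, among them *SPX2*, *RNS1*, *SULTR1;1* and *SULTR4;2*.

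Genes induced by sulphur limitation were examined in a list likewise drawn up after *LSU3* had been seen among the largest falls. Of 14 genes, 9 were lower than in WT and none was higher (median log2 difference -1.2), and 6 were lower without WT replicate 1. *LSU3*, a marker of low sulphur, had 1.03, 4.32 and 1.53 FPKM in *bli ire1a*, against 47.1, 25.6 and 25.9 FPKM in WT, and fell by 3.97 (standard error 0.57, adjusted p = 0.0016). *ATSDI1*, which encodes a repressor of glucosinolate synthesis under sulphur deficiency, had 1.27, 3.02 and 1.34 FPKM in *bli ire1a*, against 21.0, 10.9 and 9.74 FPKM in WT, and fell by 2.84 (adjusted p = 0.00241). *BGLU28*, a β-glucosidase gene of this response, fell by 2.1 (adjusted p = 0.00549). *LSU1* fell by 3.94 (adjusted p = 0.0129, or 0.0562 without WT replicate 1 and 0.0805 with a pseudocount of 0.01). The 3 genes of adenosine phosphosulfate reductase, *APR1*, *APR2* and *APR3*, averaged 48.0, 73.8 and 55.4 FPKM in *bli ire1a*, against 97.2, 124 and 95.7 FPKM in WT, and all fell (adjusted p = 0.00504, 0.00746 and 0.0143). Here 7 of the 14 genes were also lower in *bli ire1a* than in *bli* and none was higher. *LSU3* averaged 12.9 FPKM in *bli* and 1.60 FPKM in *bli ire1b*.

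Aliphatic glucosinolates are sulphur-rich defence compounds made from methionine. Of 14 genes of this pathway, 8 were lower in *bli ire1a* than in WT and none was higher (median log2 difference -0.50). *MYB29*, which with *MYB28* encodes the transcription factors of the pathway, had 16.1, 13.2 and 11.4 FPKM in *bli ire1a*, against 36.7, 31.1 and 29.0 FPKM in WT, and fell by 1.25 (standard error 0.15, adjusted p = 0.000626). *BAT5*, a transporter gene for chain elongation intermediates, fell by 0.76 (29.4 ± 1.24 FPKM in *bli ire1a* and 50.3 ± 6.28 FPKM in WT; adjusted p = 0.00294). *CYP79F1*, which makes the aldoximes, fell by 0.74 (adjusted p = 0.00706). The oxygenase gene *FMOGS-OX1* fell by 0.67 against WT (adjusted p = 0.00384) and by 0.66 against *bli* (adjusted p = 0.004). The chain elongation genes *IPMI2*, *IMD1* and *MAM1* did not pass the test, with log2 differences of -0.06, -0.03 and 0.20. Of 5 indole glucosinolate genes only the regulator gene *MYB34* passed, with 20.5, 21.5 and 23.4 FPKM in *bli ire1a*, against 45.9, 38.3 and 38.0 FPKM in WT (adjusted p = 0.00363). The median log2 difference of the aliphatic genes from WT was -0.50 in *bli ire1a*, -0.08 in *bli* and -0.14 in *bli ire1b*, and against *bli* itself 4 of the 14 were lower in *bli ire1a*.

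Of 16 cold and abscisic acid response genes, 7 were lower in *bli ire1a* and none was higher (median log2 difference -1.08). With 1 library left out 5 to 11 were lower, the 11 being without WT replicate 2. *COR15A*, *COR15B* and *RD29A* had overlapping libraries and did not pass (adjusted p = 0.0826, 0.136 and 0.0811). In WT *COR15A* had 191, 39.1 and 232 FPKM and *RD29A* 202, 58.3 and 241 FPKM. WT replicate 2 was the lowest in both, unlike in *KIN1* below. *GOLS3*, a galactinol synthase gene induced by cold, had 2.08, 2.64 and 1.58 FPKM in *bli ire1a*, against 15.8, 10.4 and 13.6 FPKM in WT, and fell by 2.61 (standard error 0.38, adjusted p = 0.00152). *LTI30*, a dehydrin gene, had 61.4, 78.8 and 83.0 FPKM in *bli ire1a*, against 179, 154 and 174 FPKM in WT, and fell by 1.19 (adjusted p = 0.00027). *KIN1* had 20.6, 43.8 and 54.5 FPKM in *bli ire1a*, against 119, 121 and 78.7 FPKM in WT (adjusted p = 0.0102, or 0.0659 with only the 2 genotypes fitted), and shares sequence with its neighbour *KIN2*. Of the genes for the CBF factors that activate this set, *CBF3* averaged 1.00 FPKM in *bli ire1a* and 4.23 FPKM in WT (adjusted p = 0.0261, but 0.0542, 0.0605, 0.0813 and 0.105 without *bli ire1a* replicates 1, 2 and 3 and WT replicate 1). *CBF1* and *CBF2* went the other way, with log2 differences of 0.52 and 0.56, and did not pass. They and the abscisic acid marker *RAB18* (0.03, also not passing) were the 3 of the 16 genes with a positive log2 difference. The median log2 difference from WT was -1.08 in *bli ire1a*, -2.12 in *bli* and -2.04 in *bli ire1b*. Directly against *bli*, 5 genes were higher in *bli ire1a* and none was lower.

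Of 12 flavonoid genes, 6 were lower than in WT and none was higher, and all 12 log2 differences were negative (-2.36 to -0.33, median -0.85). *FLS1*, the flavonol synthase gene, had 10.8, 14.8 and 11.3 FPKM in *bli ire1a*, against 30.4, 39.1 and 26.9 FPKM in WT, and fell by 1.37 (adjusted p = 0.000897). *F3H*, the flavanone hydroxylase gene, had 13.3, 13.8 and 16.6 FPKM in *bli ire1a*, against 27.7, 31.9 and 28.6 FPKM in WT, and fell by 1.01 (adjusted p = 0.000568). Neither gene's libraries overlapped. The entry enzyme chalcone synthase (*CHS*) averaged 73.1 FPKM in *bli ire1a* and 132 FPKM in WT (adjusted p = 0.00624). The regulator genes *PAP1* (0.752 FPKM in *bli ire1a* and 4.24 FPKM in WT) and *MYB12* (1.13 and 3.16 FPKM in *bli ire1a* and WT) passed at adjusted p = 0.0269 and 0.0328. With 1 library left out these ranged from 0.0220 to 0.108 and from 0.0373 to 0.105, above 0.05 for *PAP1* without *bli ire1a* replicate 3 or WT replicate 1 or 3, and for *MYB12* without each library except *bli ire1a* replicate 2. None of the 12 genes differed between *bli ire1a* and *bli* at an adjusted p of at most 0.05 with limma, and 1 did at an unadjusted p of at most 0.05.

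Of 12 clock genes, 4 were higher and 5 were lower in *bli ire1a*, with genes that peak near dawn among the lower ones. *PRR9*, a pseudo-response regulator of the morning, had 6.24, 8.01 and 7.70 FPKM in *bli ire1a*, against 39.7, 27.4 and 28.8 FPKM in WT, and fell by 2.1 (standard error 0.31, adjusted p = 0.00179). *CCA1*, a MYB factor of the morning loop, had 19.4, 17.36 and 12.6 FPKM in *bli ire1a*, against 47.4, 33.1 and 41.9 FPKM in WT, and fell by 1.31 (adjusted p = 0.00398). Its relatives *LHY* and *RVE8* fell by 1.01 and 1.2 (adjusted p = 0.00473 and 0.00987). The evening genes *LUX* and *TOC1* averaged 24.6 and 22.1 FPKM in *bli ire1a*, against 13.5 and 16.3 FPKM in WT, and were higher (adjusted p = 0.00279 and 0.00479), as were *PRR3* and *ELF3*. *GI*, which peaks late in the day, was lower with adjusted p = 0.0492, and *PRR7*, *PRR5* and *ELF4* did not pass. The count of lower genes was 4 without any library except *bli ire1a* replicate 1. *PRR9*, *CCA1*, *LHY* and *RVE8* did not differ between *bli ire1a* and *bli* at an adjusted p of at most 0.05 (log2 differences of -0.06, 0.07, 0.06 and 0.26). The hour at which each genotype was harvested is not given in the sources used here, and its part in this and the following groups was not tested.

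Nuclear genes of photosynthesis were slightly lower. All 18 photosystem and light-harvesting genes were below WT in every *bli ire1a* library, where 17.2% of all genes tested were. Their log2 differences were -0.48 to -0.24 (median -0.33), and 17 passed the test, the exception being *LHCB1.3* (adjusted p = 0.0613). *PSBS*, the sensor of non-photochemical quenching, had 1310, 1469 and 1326 FPKM in *bli ire1a*, against 1999, 1746 and 1819 FPKM in WT, and fell by 0.44 (standard error 0.07, adjusted p = 0.00324). *PSAF*, a photosystem I subunit gene, had 4700, 4811 and 4175 FPKM in *bli ire1a*, against 6394, 5892 and 5818 FPKM in WT (adjusted p = 0.00624). The Rubisco small subunit gene *RBCS2B* had 3839, 3143 and 2800 FPKM in *bli ire1a*, against 5448, 4835 and 5188 FPKM in WT, and fell by 0.67 (adjusted p = 0.00294). All 5 Rubisco and activase genes were lower (median log2 difference -0.47).

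These calls depended on the scaling and on single libraries. With 1 library left out, 3 to 13 of the 18 photosystem genes were lower: 6, 13 and 4 without *bli ire1a* replicates 1, 2 and 3, and 3, 13 and 10 without WT replicates 1, 2 and 3. With quantile normalization 0 were lower, a setting that gives the most abundant genes of each library the same values by construction, and 1 of the 5 Rubisco and activase genes was. With only the 2 genotypes fitted these counts were 1 and 2. For *RBCS2B* the highest adjusted p over the alternatives was 0.0427. Directly against *bli*, 14 of the 18 photosystem genes were higher in *bli ire1a* and none was lower. Copies such as *LHCB1.1*, *LHCB1.2* and *LHCB1.3* are nearly identical, and the split of fragments among them is uncertain.

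**Figure D5:**
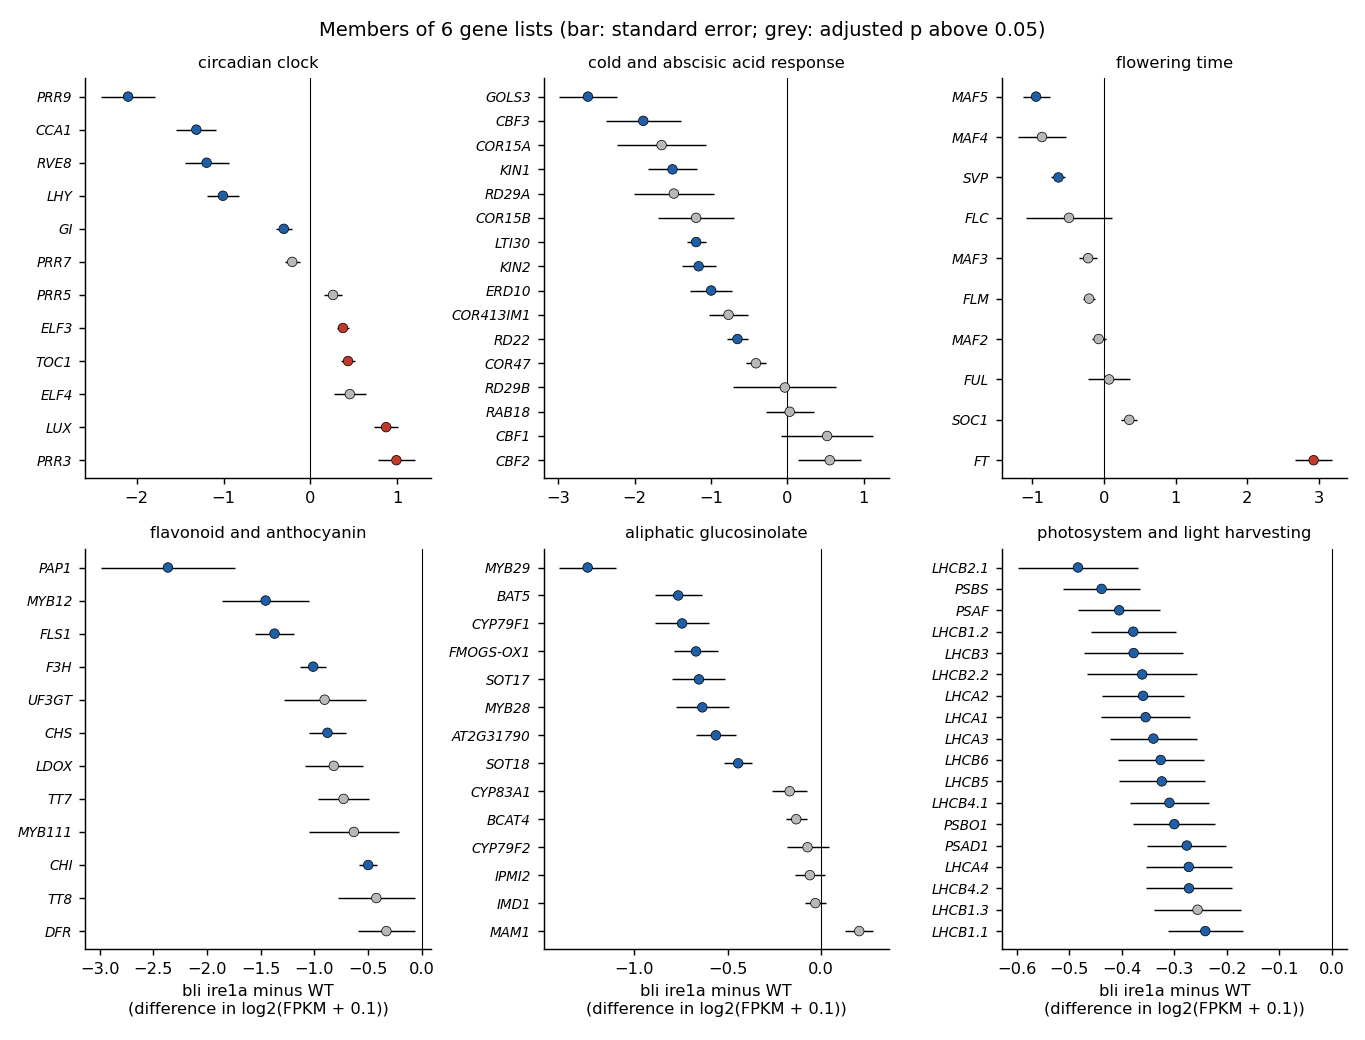
Difference between *bli ire1a* and WT (x axis, in log2(FPKM + 0.1), with its standard error) for the tested members of 6 gene lists; red and blue points are higher and lower at an adjusted p of at most 0.05 and grey points did not pass. The clock genes *PRR9*, *CCA1*, *RVE8* and *LHY* lie at -1 or below, *FT* stands alone at 2.93, and all 18 photosystem genes lie between -0.48 and -0.24.

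Iron genes did not move together, with 2 of 13 higher and 2 lower in *bli ire1a*. *NAS4*, a nicotianamine synthase gene, had 9.31, 9.85 and 8.58 FPKM in *bli ire1a*, against 20.7, 17.2 and 18.8 FPKM in WT, and fell by 1.02 (adjusted p = 0.00285). *FRO2*, the root ferric reductase gene, averaged 3.60 FPKM in *bli ire1a*, 0.425 FPKM in *bli* and 7.34 FPKM in WT. It was above *bli* by 2.80 (adjusted p = 0.000124), whereas its difference from WT (adjusted p = 0.0363) had an adjusted p above 0.05 without *bli ire1a* replicate 1 or 3 or WT replicate 2 or 3, with a highest value of 0.125. The regulator genes *bHLH100* and *bHLH101* averaged 4.35 and 2.35 FPKM in *bli ire1a*, against 1.07 and 0.562 FPKM in WT (adjusted p = 0.0456 and 0.0384). With 1 library left out these ranged from 0.0264 to 0.162 and from 0.0411 to 0.124, above 0.05 in each case except without WT replicate 3 for *bHLH100* and without *bli ire1a* replicate 1 for *bHLH101*.

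Several of the largest falls involved genes listed at 0. *MT1B* (AT5G56795, chr5:22971713-22972690), which encodes a small metal-binding protein, was listed at 0 in the 3 *bli ire1a* libraries, against 215, 157 and 54.9 FPKM in WT. It had 53.7 to 283 FPKM in the *bli* libraries and 66.7 to 216 FPKM in the *bli ire1b* libraries. Its relative *MT1A* was listed at 0 in all 12 libraries. Whether these zeros are failed estimates was not tested, and no fold change is given. AT1G16515 was listed at 0 in the *bli ire1a* libraries and in the *bli* libraries, against 4.15, 2.65 and 5.29 FPKM in WT (adjusted p = 0.0149, or 0.0519 without WT replicate 1).

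AT2G15020 and AT5G20790, which have no name in the annotation, had large falls without zeros in the 6 libraries. AT2G15020 had 1.39, 0.946 and 0.589 FPKM in *bli ire1a*, against 32.4, 14.9 and 18.7 FPKM in WT, and fell by 4.35 (adjusted p = 0.00216). AT5G20790 had 2.21, 7.15 and 2.199 FPKM in *bli ire1a*, against 69.9, 92.2 and 36.7 FPKM in WT, and fell by 4.2 (adjusted p = 0.00223). AT1G23110, which overlaps genes on the other strand, averaged 0.929 FPKM in *bli ire1a* and 13.5 FPKM in WT and fell by 3.99 (adjusted p = 0.00161). AT1G76190, with *SAUR56* as a synonym, was listed at 0 in 2 of the 3 *bli ire1a* libraries and had 0.824 FPKM in the other, against 2.92, 6.75 and 2.93 FPKM in WT.

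Salicylic acid defence genes showed no common direction. Of 15 genes, 1 was higher and 1 was lower. *SAG101*, a partner of the immune regulator EDS1, had 22.9, 19.1 and 19.1 FPKM in *bli ire1a*, against 12.3, 11.1 and 11.9 FPKM in WT, and rose by 0.78 (adjusted p = 0.00042). *PR1*, the marker of this response, averaged 35.8 FPKM in *bli ire1a* and 35.6 FPKM in WT, with an adjusted p = 0.867. *ACD6* averaged 11.6 FPKM in *bli ire1a* and 29.1 FPKM in WT, with an adjusted p = 0.0411 that was above 0.05 whichever of the 6 libraries was left out (0.0684 to 0.134).

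Of the 89 genes that the naming rule selects, 87 of which passed the test against WT, *bli ire1a* differed from *bli* in 45 and from *bli ire1b* in 47 at an adjusted p of at most 0.05 (limma, adjusted over all genes tested). Over all genes tested the shares were 14.3% against *bli* and 12.8% against *bli ire1b*, and since the genes were largely chosen for their call against WT, which rests on the same *bli ire1a* libraries, nothing is read from the difference. Of 6 stomatal lineage markers 5 were higher in *bli ire1a* than in *bli*, where 6.62% of all genes tested were. Against WT only *MYB60*, a guard cell factor gene, was lower. *TMM*, a receptor gene of the lineage, averaged 15.9 FPKM in *bli ire1a*, 3.39 FPKM in *bli*, 6.56 FPKM in *bli ire1b* and 18.8 FPKM in WT. *MYB60* averaged 11.8 FPKM in *bli ire1a* and 17.64 FPKM in WT with an adjusted p = 0.0276, which ranged from 0.0302 to 0.0875 when 1 library was left out and was above 0.05 without each library except WT replicate 1.

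Of 12 cutin and wax genes, 2 were lower in *bli ire1a* than in WT. *CYP77A6*, a hydroxylase gene of cutin synthesis, and *GPAT6*, an acyltransferase gene of this pathway, averaged 2.50 and 9.20 FPKM in *bli ire1a*, against 5.24 and 12.9 FPKM in WT. *CYP77A6* had an adjusted p = 0.0427, which was above 0.05 without *bli ire1a* replicate 2 or 3 or WT replicate 1 or 3, with a highest value of 0.157. *GPAT6* had an adjusted p = 0.0357, which was above 0.05 whichever library was left out (0.0560 to 0.133).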

How the data were processed

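RNA from whole seedlings of 4 genotypes (3 biological replicates each, per the study's methods) was sequenced by the authors, who filtered reads with SeqPrep and Sickle, mapped them to TAIR10 with TopHat and tested expression with Cuffdiff. The submitters' processing notes list Bowtie 0.12.2 and the build mm8 instead. The deposited values are FPKM per gene and library, and the program that made them and its use of strand are not given in the sources used here. The study's supplement gives each library's number of sequences, but FPKM hold no read counts per gene, so single values carry no counting interval. The file had 0 columns of other samples.

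Values were taken as log2(FPKM + 0.1), the pseudocount being 0.1, and genes with a mean of at least 0.5 FPKM over the 12 libraries were kept. Fold changes are on this scale, which understates changes of low genes. One limma model (version 3.58.1, R 4.3.3) with a mean-variance trend was fitted to the 4 genotypes (8 residual degrees of freedom), with two-sided moderated tests and Benjamini-Hochberg adjustment over all 20645 genes. With 3 against 3 libraries an exact permutation test cannot go below p = 0.1. The p-values set each difference against the spread between these samples, which was estimated over the libraries of all 4 genotypes.

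The members and lists were chosen with earlier results of these data known. Of 30 lists, 3 were drawn up after values were seen, as were the motifs, the printed windows and the list genes named beyond the rule. The rule named 89 genes, 87 of them called: the targeted genes, the canonical UPR markers, up to 4 called members per list and the 12 largest rises and falls among called genes with a mean of at least 1 FPKM and no overlap between the genotypes. Names were matched to RefSeq TAIR10.1 for 32810 loci (97.8%). Simulated data were made from the WT means and the spread within genotypes, with log2 changes of 1, 1.5, 2 or 3 in some genes. Of 193 changed genes 166 were called in the right direction, and 10 unchanged genes were called, of 20275 genes. At a log2 change of 1 the number was 36 of 48. Smaller changes, such as those of the photosystem genes, were not simulated. Other pseudocounts, filters, scalings and fits, a replicate block, and fits without each library were tried.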

Additional observations from a re-analysis of the deposited data

How the results depend on the processing

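With a pseudocount of 1, 210 genes were up-regulated and 263 down-regulated. With only *bli ire1a* and WT fitted, 746 genes were higher and 993 lower at an adjusted p of at most 0.05. With 1 library left out, 348 to 412 genes were up-regulated and 415 to 531 down-regulated, while 917 to 1250 were higher and 852 to 1438 lower. The cause was not tested. No value changed its direction past the threshold under these alternatives.

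Deviations of the *bli ire1a* and WT libraries from their group means correlated across genes at 0.06, -0.11 and 0.00 for replicate numbers 1, 2 and 3. No pairing by number was seen. Libraries of unlike number were not compared, so the check cannot settle whether the numbers pair the samples. With the replicate block 378 genes were up-regulated and 457 down-regulated, 1390 higher and 1617 lower, and *HRD1B*, *LOX2* and *bHLH100* lost their call.

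Of the 87 genes named by rule that had a call, 19 lost their call with only the 2 genotypes fitted, 11 without a filter, 8 without the mean-variance trend, 7 with quantile normalization, 2 with each other pseudocount, and 11 to 16 with 1 library left out. With upper-quartile scaling or a minimum of 1 FPKM the number was 0. The counts of named genes that differed from *bli* and *bli ire1b* ranged from 37 to 46 and from 38 to 48 with 1 library left out, alternatives chosen after seeing the data. The values hold no read counts per gene, so the counting error of low genes and of genes listed at 0 could not be given.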
